A study of Mus musculus with 4 samples.

Results

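The nuclear-encoded subunits of the respiratory chain and of the ATP synthase were followed in mouse dendritic cells across silencing of NR4A3 and stimulation with LPS. Members were all genes whose symbol begins with Ndufa, Ndufb, Ndufc, Ndufs or Ndufv and a number, or is Sdha, Sdhb, Sdhc or Sdhd. Genes whose symbol begins with Uqcr, with Cox and a digit from 4 to 8, or with Atp5 were also members. Symbols that begin with Ndufaf, which are assembly factors, and pseudogenes were left out. This gave 81 of the 19938 genes that could be named on the array: 33 of complex I, 4 of complex II, 8 of complex III, 19 of complex IV and 17 of complex V, the ATP synthase. Ndufa4 and its relative Ndufa4l2 were counted with complex IV, where the Ndufa4 protein is known to sit despite its name. Cox7a2l, a supercomplex factor rather than a subunit, matched the rule and was counted with the subunit genes of complex IV. Cox7c, Ndufb4 and Ndufb4b lay only on probe sets shared with other genes and are not described.

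Bone marrow cells were grown for 10 days in 20 ng/mL GM-CSF, a growth factor that turns myeloid precursors into dendritic cells. Electroporation then delivered either a control siRNA or one that targets NR4A3, a transcription factor of the orphan nuclear receptors. After 24 hours they were left unstimulated or given LPS at 100 ng/mL, the bacterial cell wall component sensed by TLR4, and RNA was taken 24 hours later. Each of the 4 conditions (control siRNA or NR4A3 siRNA, without or with LPS) was measured on 1 Affymetrix Mouse Gene 1.0 ST array. The labels give the strain as BALB/c in the culture protocol and as C57BL/6 in the sample records, and do not say whether the arrays came from separate cultures or how many mice were used. With 1 array a condition, no p-value here measures a spread between cultures or animals. Its error comes from how far a gene departs from additive effects over the 4 arrays, drawn towards a value shared by all genes fitted. All 4 conditions were electroporated, and no untransfected array was analysed here.

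In the respiratory chain, complex I (NADH dehydrogenase) and complex II (succinate dehydrogenase, which is also an enzyme of the TCA cycle) pass electrons to ubiquinone. Complex III passes them on to cytochrome c and complex IV to oxygen, and the proton gradient built along the way drives ATP synthesis by complex V. Most subunits are encoded in the nucleus and the rest in mitochondrial DNA, and both must be made in balance. Dendritic cells and macrophages given LPS are known to turn towards glycolysis, and the nitric oxide made by inducible nitric oxide synthase, Nos2, is known to block complex IV.

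Levels are log2 array signals, and 1 unit is a doubling. A gene was tested where its brightest array reached 6.66, the median level of the named genes over all arrays. Of the 81 members, 75 passed, 74 of them on all 4 arrays. Cox7a1 was below that level on 1 array, the one of LPS-treated cells with control siRNA. The 6 that stayed below it on every array were Cox4i2, Cox6b2, Cox7b2, Cox8b, Cox8c and Ndufa4l2, all isoforms known from other tissues or from hypoxia rather than from most cells. Pairs of single arrays allow no test, and their difference was counted when it reached 1.5-fold. The average effect of LPS over both siRNAs, and of NR4A3 siRNA over both states, was tested by an additive limma fit over 10592 genes, with Benjamini-Hochberg adjustment and a threshold of 0.05. In RNA from a whole culture, fewer cells of a type and less RNA per cell cannot be told apart.

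Nr4a3 itself, the siRNA target, stood at 11.21 and 7.15 in unstimulated cells and at 11.77 and 9.39 with LPS, with control and NR4A3 siRNA. Of 10 dendritic cell markers 9 were above the filter on all arrays, and Flt3 was below it on every array. With NR4A3 siRNA 8 of the 9 were lower on average, 1 of them called: Cd86 by 0.99 (adjusted p = 0.0118, limma). Of all genes 43.8% were lower on average with NR4A3 siRNA and 3.58% were called lower. The maturation markers Ccr7 and Fscn1 were 11.6-fold and 9.81-fold lower in unstimulated cells and 1.67-fold and 1.58-fold lower with LPS, and their averages were not called. The summed log2 levels of the 10 were 109 and 112 with control siRNA and 100.2 and 109 with NR4A3 siRNA, without and with LPS. No B cell, T cell, NK cell or erythroid marker reached the filter on any array (0 of 4, 0 of 3, 0 of 4 and 0 of 2 measured). All 8 macrophage markers reached it on at least 1 array. The summed log2 levels of these 8 were 81.2 and 74.2 with control siRNA and 86.0 and 80.9 with NR4A3 siRNA, without and with LPS. Within the list 5 were called lower with LPS and 2 higher, Adgre1 and Fcgr1. With NR4A3 siRNA 4 were called higher, Mrc1 and the complement genes C1qa, C1qb and C1qc. Of all genes 14.4% were called lower and 15.6% higher with LPS, and 1.98% were called higher with NR4A3 siRNA. All 3 monocyte markers measured were called lower with LPS, with sums of 34.9 and 28.7 and of 34.4 and 28.1. One of them, F13a1, passed the filter only through its unstimulated arrays and stood at 6.16 and 5.90 with LPS. Its fall was therefore favoured by the filter, and its size and these sums are approximate. All 5 stromal markers were above the filter on all arrays, with sums of 36.0 and 38.7 and of 36.2 and 39.0, and Dcn was called higher with LPS. Of 7 neutrophil markers S100a8 alone reached the filter, and of 5 mast cell and basophil markers Kit alone. Many of the subunit genes described below were also lower with LPS and higher with NR4A3 siRNA, and the part of these cells and of maturation in the subunit values was not tested.

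LPS and the respiratory chain are taken first. Under control siRNA, 62 of the 75 subunit genes were lower with LPS (82.7%), beside 51.7% of all 10346 genes above the filter in that pair. The steps were small: the median difference was -0.15 on the log2 scale, against -0.02 for all genes, and the range ran from -0.76 to 0.36. A difference of at least 1.5-fold was reached by 2 subunit genes, Cox7a1 and Atp5mpl, both lower, and none was higher. That is 2.67% of the members beside 19.7% of all genes (9.44% lower and 10.2% higher). Under NR4A3 siRNA, which shares no array with the first pair, 48 of 75 were lower (64.0%, beside 47.6% of all genes), with a median of -0.09 against 0.02. When quantile normalization was repeated over the named genes, that split became 60 lower and 14 higher. At 1.5-fold, Cox7a1 and Atp5g2 were lower and Ndufs4 higher under NR4A3 siRNA, beside 17.2% of all genes (6.88% lower and 10.3% higher). In both pairs, 46 subunit genes were lower with LPS (61.3%, beside 39.1% of all genes) and 11 were higher (14.7%, beside 39.4%).

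**Figure D1:**
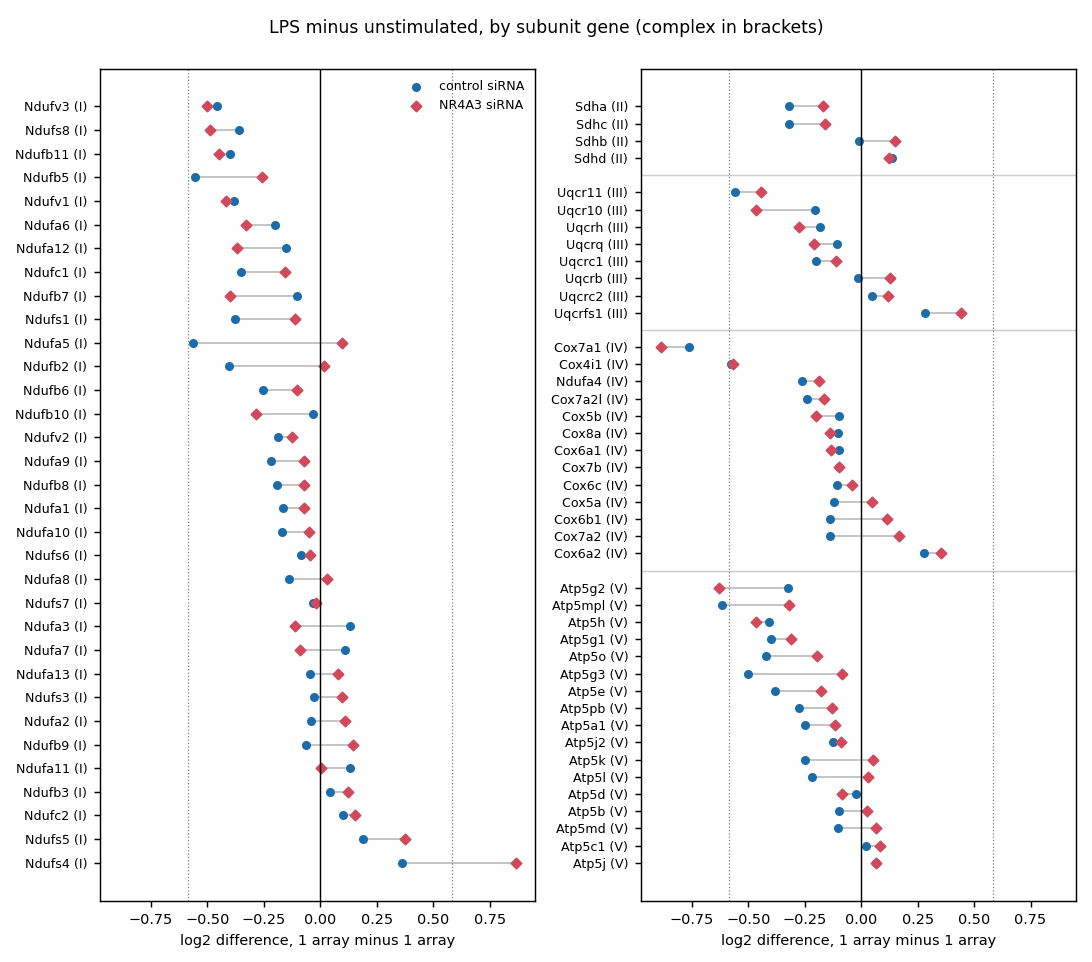
Log2 difference between the LPS array and the unstimulated array for each of the 75 subunit genes above the filter, by complex and ordered by the average of both pairs. Blue circles are cells with control siRNA, red diamonds cells with NR4A3 siRNA, each 1 array minus 1 array, and dotted lines mark 1.5-fold. Of the 75 genes, 62 blue and 48 red points lie left of 0, Cox7a1, dim with LPS, is farthest left and Ndufs4 farthest right.

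The average LPS effect passed the threshold for 14 of the 75 subunit genes, 12 of which fell and 2 of which rose (limma, adjusted p under 0.05). Across all genes the share called was 30.0%, with 14.4% lower and 15.6% higher. The members' 16% lower is close to that background, whereas their 2.67% higher is far under it. At an unadjusted p under 0.05 there were 20 subunit genes, or 26.7% beside 41.9% of all genes. Whether called or not, 55 of the 75 averages were below 0 (73.3%, beside 49.8% of all genes). The 12 that fell dropped by between 1.28-fold and 1.77-fold (the last Cox7a1, close to the filter level) and came from complexes I, III, IV and V, with none from complex II. On 30 subunit genes both LPS arrays lay below both unstimulated arrays (40.0%, beside 28.4% of all genes), and on 6 both lay above (8.0%, beside 28.4%).

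**Figure D2:**
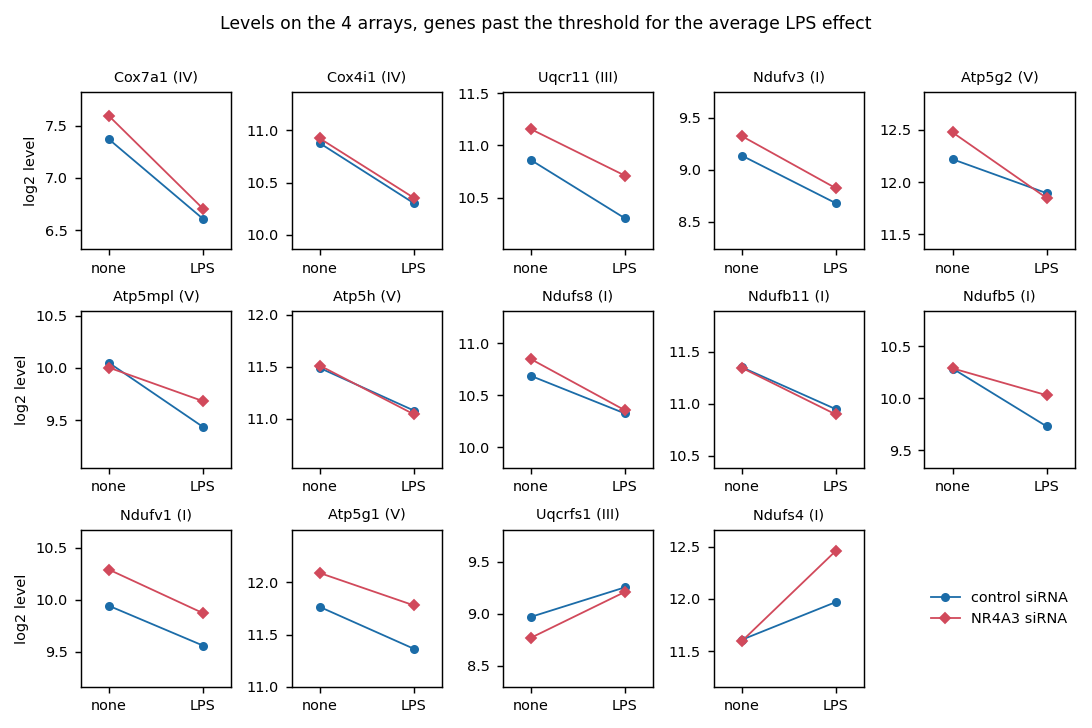
Log2 levels on the 4 arrays of the 14 subunit genes past the threshold for the average LPS effect, without and with LPS, in panels of equal height in log2 units. Blue circles are control siRNA and red diamonds NR4A3 siRNA, 1 array each, with lines joining the arrays of 1 siRNA. The first 12 panels run downwards in both siRNAs, and Uqcrfs1 and Ndufs4 run upwards.

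Complex I has a core that carries the flavin and the iron-sulphur clusters, and a large shell of accessory subunits. Ndufv1, the core subunit that binds FMN and oxidises NADH, stood at 9.94 and 9.56 with control siRNA and at 10.29 and 9.87 with NR4A3 siRNA, without and with LPS. Its LPS arrays were the lower ones under either siRNA, and both lay below both unstimulated arrays. It fell by 0.40 ± 0.10 on the log2 scale (SE, adjusted p = 0.0282, limma). Ndufs8, a core subunit that carries iron-sulphur clusters, went from 10.69 to 10.33 and from 10.85 to 10.36. It fell by 0.43 ± 0.10 (SE, adjusted p = 0.0258, limma), and its groups did not overlap either. The other 4 nuclear-encoded core subunits measured did not pass. Ndufs1 had an average LPS effect of -0.24, Ndufv2 of -0.16, Ndufs7 of -0.02 and Ndufs3 of 0.03.

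Among the 27 accessory subunits of complex I, 3 fell and 1 rose. Ndufv3, a small subunit bound beside the flavin site, stood at 9.14 and 8.68 with control siRNA and at 9.32 and 8.82 with NR4A3 siRNA. Its steps were nearly equal, at -0.46 and -0.50, and it fell by 0.48 ± 0.10 (SE, adjusted p = 0.0156, limma). Ndufb11, a subunit of the membrane arm, went from 11.35 to 10.95 and from 11.35 to 10.90, and fell by 0.42 ± 0.10 (SE, adjusted p = 0.0233, limma). The unstimulated arrays of Ndufb11 were level between the siRNAs, and both LPS arrays lay below them. Ndufb5, also of the membrane arm, went from 10.28 to 9.73 with control siRNA and from 10.29 to 10.03 with NR4A3 siRNA. It fell by 0.41 ± 0.11 (SE, adjusted p = 0.0450, limma), and not past the threshold when genes were fitted without a filter (adjusted p = 0.0713).

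Ndufs4 moved the other way. It encodes an accessory subunit needed for a stable complex I, and its loss in mice is a known model of Leigh syndrome. Its level was 11.61 in unstimulated cells with control siRNA and 11.97 with LPS, and 11.59 and 12.46 with NR4A3 siRNA. The unstimulated arrays were alike, and the LPS array with NR4A3 siRNA was the highest of the 4. It rose by 0.61 ± 0.14 (SE, adjusted p = 0.0249, limma), with steps of 0.36 and 0.87. The adjusted p was 0.0755 with repeated quantile normalization and 0.0551 without a filter. Ndufs5, another accessory subunit, had the next highest average LPS effect in complex I, 0.28, and did not pass the threshold.

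None of the 4 subunits of complex II passed the threshold for LPS. Sdha, the flavoprotein that oxidises succinate, stood at 10.92 and 10.60 with control siRNA and at 11.05 and 10.88 with NR4A3 siRNA, without and with LPS. Sdhc, a membrane anchor, stood at 10.97 and 10.65 and at 11.25 and 11.09. Both had an average LPS effect of -0.24. Sdhd, the other anchor, had one of 0.13 and the iron-sulphur subunit Sdhb one of 0.07, so the complex was divided in direction. With repeated quantile normalization Sdha and Sdhc passed, at adjusted p of 0.0434 and 0.0383 (limma), both lower with LPS.

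In complex III, 1 subunit gene fell and 1 rose past the threshold. Uqcr11, a small subunit at the edge of the complex, went from 10.86 to 10.30 with control siRNA and from 11.16 to 10.71 with NR4A3 siRNA. Both LPS arrays lay below both unstimulated arrays, and it fell by 0.50 ± 0.10 (SE, adjusted p = 0.0144, limma). Uqcrfs1, the Rieske iron-sulphur protein that passes electrons on towards cytochrome c, went from 8.97 to 9.25 and from 8.77 to 9.21. It rose by 0.36 ± 0.10 (SE, adjusted p = 0.0446, limma), and its LPS arrays lay above both unstimulated arrays. Its adjusted p was 0.0609 with repeated quantile normalization and 0.0582 without a filter. Uqcr10 had an average of -0.34 and did not pass (adjusted p = 0.0705, limma), with both LPS arrays below both unstimulated arrays. Its step under NR4A3 siRNA, -0.47, was close to that of Uqcr11, -0.45. With repeated quantile normalization 2 genes of complex III were called lower and 0 higher. The core proteins Uqcrc1 and Uqcrc2 had average effects of -0.16 and 0.08, and neither passed.

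In complex IV 2 genes fell. Cox7a1, the heart and skeletal muscle form of subunit VIIa, stood at 7.37 and 6.61 with control siRNA and at 7.59 and 6.71 with NR4A3 siRNA. Both LPS arrays were at or near the filter level, and both lay below the unstimulated arrays. Cox7a1 therefore passed the filter through its unstimulated arrays in the control pair, and its folds against so dim a level are approximate. The measured steps were 1.70-fold and 1.85-fold, and the average was 1.77-fold lower (adjusted p = 0.00261, limma). The widely expressed form Cox7a2 went from 10.53 to 10.39 and from 10.55 to 10.72, with no call. Cox4i1, the widely expressed form of subunit IV and a regulator of the enzyme's activity, went from 10.88 to 10.30 and from 10.92 to 10.35. Its step was -0.57 under either siRNA, and it fell by 0.57 ± 0.10 (SE, adjusted p = 0.00823, limma). Its counterpart Cox4i2, the form known from lung and low oxygen, was below the filter throughout, between 6.50 and 6.56. The muscle isoform Cox6a2 had the highest average effect in the complex, 0.32, and did not pass (adjusted p = 0.0579, limma). The other 10 tested genes of complex IV lay between -0.22 and 0.01.

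Complex V had the lowest median of the 5 under control siRNA, -0.25, with 15 of 17 genes lower (51.7% of all genes). Its median under NR4A3 siRNA was -0.09, with 11 of 17 lower (47.6% of all genes). Over both siRNAs 4 genes fell and none rose. Atp5g1 and Atp5g2, with Atp5g3, encode the same mature c subunit of the proton-driven ring from separate genes. Atp5g2 stood at 12.22 and 11.89 with control siRNA and at 12.48 and 11.85 with NR4A3 siRNA, and fell by 0.48 ± 0.11 (SE, adjusted p = 0.0281, limma). Its LPS arrays lay close together and its unstimulated arrays apart. Atp5g1 stood at 11.76 and 11.36 and at 12.09 and 11.78, and fell by 0.36 ± 0.10 (SE, adjusted p = 0.0420, limma). The LPS array of Atp5g1 with NR4A3 siRNA was as high as the unstimulated array with control siRNA, so its groups overlapped. It missed the threshold without a filter, at an adjusted p of 0.0516. Atp5g3 stood at 11.46 and 10.96 and at 11.43 and 11.34, and its average of -0.29 did not pass (adjusted p = 0.144, limma).

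The other 2 genes of complex V that fell act in the stalk and at the membrane. Atp5h, subunit d of the stalk that holds the catalytic head in place, went from 11.49 to 11.08 and from 11.51 to 11.04. It fell by 0.44 ± 0.10 (SE, adjusted p = 0.0214, limma), with nearly the same levels under either siRNA. Atp5mpl, a small proteolipid of the membrane part, went from 10.05 to 9.44 and from 10.00 to 9.68, and fell by 0.47 ± 0.11 (SE, adjusted p = 0.0289, limma). Of the catalytic head, Atp5a1 had an average of -0.18 and Atp5b of -0.04. Of the central stalk below it, Atp5c1 had 0.05, Atp5d -0.05 and Atp5e -0.28. None of them passed, although both LPS arrays of Atp5e lay below both unstimulated arrays (adjusted p = 0.0986, limma).

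Silencing of NR4A3 is taken next. With NR4A3 siRNA most subunit genes were slightly higher, in both states. In unstimulated cells 56 of 75 were higher (74.7%, beside 53.8% of all 10257 genes), with a median of 0.11 against 0.02. With LPS 66 of 75 were higher (88.0%, beside 58.2% of all 10210 genes), with a median of 0.17 against 0.05. This pair uses the same LPS array with control siRNA as the LPS comparison under control siRNA, there with the opposite sign. The unstimulated array with NR4A3 siRNA is likewise shared, with opposite signs, by the pair without LPS and the LPS comparison under NR4A3 siRNA. The counts for the siRNA are therefore not independent of those for LPS. Under cyclic loess normalization the split with LPS was 58 higher and 17 lower. No member reached 1.5-fold in either state, beside 6.31% and 8.46% of all genes. The siRNA pairs share no array with each other, and 51 subunit genes were higher in both (68.0%, beside 41.0%) while 4 were lower in both (5.33%, beside 29.6%). On 30 subunit genes both NR4A3 siRNA arrays lay above both control arrays (40.0%, beside 19.9%), and on none did both lie below (beside 13.4%).

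The average siRNA effect called 0 of the 75 subunit genes, beside 5.56% of all genes (limma, adjusted p under 0.05). At an unadjusted p under 0.05 there were 17, or 22.7% beside 26.2% of all genes, and all 17 were higher. These 17 were 12 genes of complex I, Sdhb and Sdhc of complex II, Uqcr11 of complex III, and Atp5g1 and Atp5pb of complex V. Whether called or not, 67 of the 75 averages were above 0 (89.3%, beside 56.2% of all genes). No single subunit gene passed the adjusted test for the siRNA. Sdhb alone passed in 2 of the 7 alternatives, with an adjusted p of 0.0426 with an intensity trend in limma's eBayes and 0.0481 when probe sets of a gene were averaged.

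**Figure D3:**
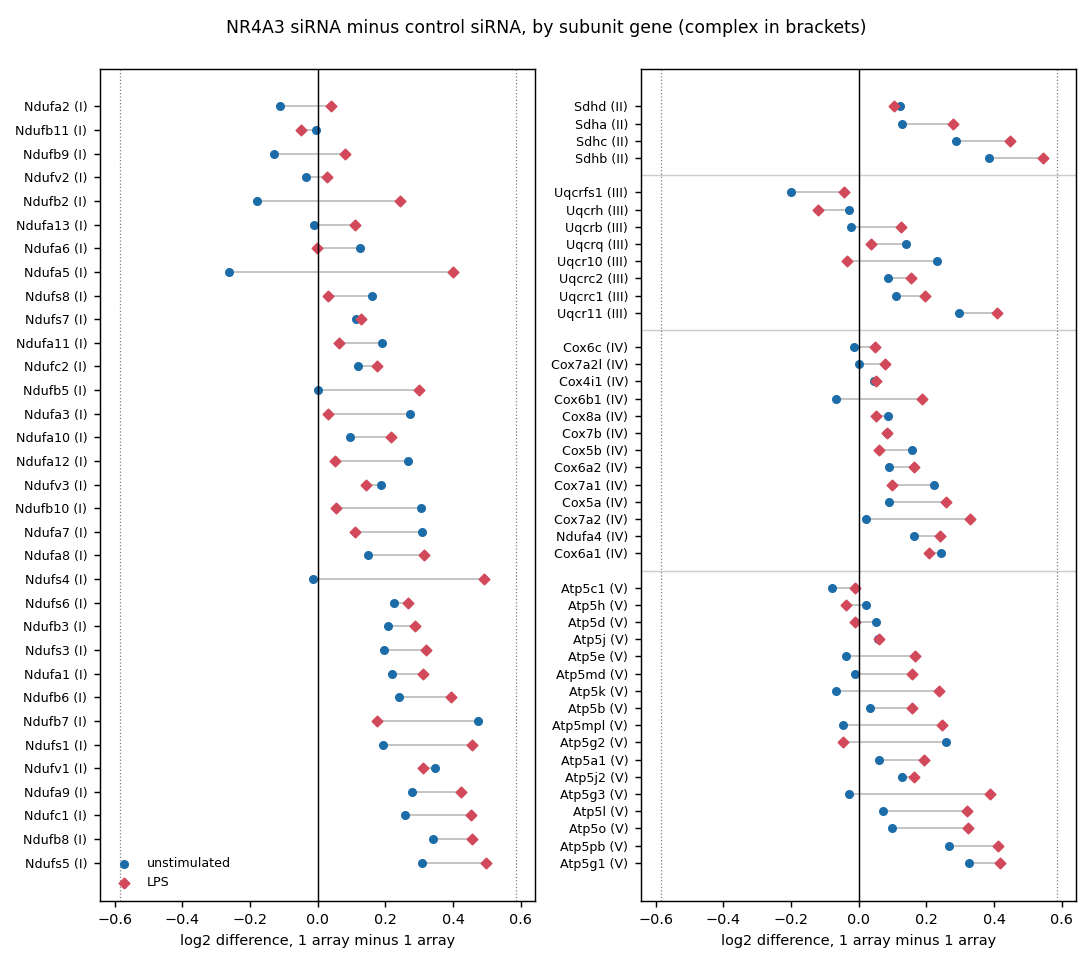
Log2 difference between the NR4A3 siRNA array and the control siRNA array for each of the 75 subunit genes above the filter, by complex and ordered by the average of both pairs. Blue circles are unstimulated cells, red diamonds cells with LPS, each 1 array minus 1 array, and dotted lines mark 1.5-fold. Of the 75 genes, 56 blue and 66 red points lie right of 0, and no point reaches a dotted line.

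Complex II was higher with NR4A3 siRNA at all 4 subunits in both states, beside 53.8% and 58.2% of all genes. Its medians were 0.21 without and 0.36 with LPS. Sdhb, which carries the iron-sulphur clusters, stood at 10.83 with control siRNA and 11.21 with NR4A3 siRNA in unstimulated cells, and at 10.82 and 11.36 with LPS. Both NR4A3 siRNA arrays lay above both control arrays, and the average was 0.47 ± 0.10 (SE, adjusted p = 0.0597, limma). Sdhc stood at 10.97 and 11.25 and at 10.65 and 11.09, with an average of 0.37 (adjusted p = 0.0946, limma). Sdha and Sdhd had averages of 0.20 and 0.11.

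Complex I had 25 of 33 genes higher in unstimulated cells and 31 of 33 with LPS, beside 53.8% and 58.2% of all genes. Its medians were 0.19 and 0.22. Both NR4A3 siRNA arrays lay above both control arrays for 19 of its 33 genes, beside 19.9% of all genes. Ndufb8, a membrane arm subunit, stood at 10.14 and 10.48 in unstimulated cells and at 9.95 and 10.41 with LPS, with control and NR4A3 siRNA, and its average was 0.40 (adjusted p = 0.0780, limma). Ndufs5 stood at 8.28 and 8.59 and at 8.47 and 8.97, with an average of 0.40 (adjusted p = 0.0835, limma). For both genes the control arrays were the lower ones. Of the core subunits Ndufv1 and Ndufs1 had averages of 0.33 and 0.32, and Ndufv2 one of -0.00.

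Complexes III, IV and V had smaller medians. Of all genes 53.8% were higher without and 58.2% with LPS. In complex III 5 of 8 genes were higher in either state, close to those shares, and Uqcr11 had the highest average, 0.35. The Rieske protein Uqcrfs1 had the lowest average of all members, -0.12. Complex IV had 11 of 13 genes higher without LPS and 13 of 13 with it, with medians of 0.09 and 0.10 and no average above 0.23. Cox4i1, which fell with LPS, differed by 0.05 in either state. In complex V 11 of 17 were higher without and 13 of 17 with LPS, and the medians were 0.05 and 0.17. Atp5g1 was 0.33 higher without and 0.42 higher with LPS, whereas Atp5g2 was 0.26 higher without and 0.05 lower with LPS (-0.05), so these genes for 1 protein differed in pattern.

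**Figure D4:**
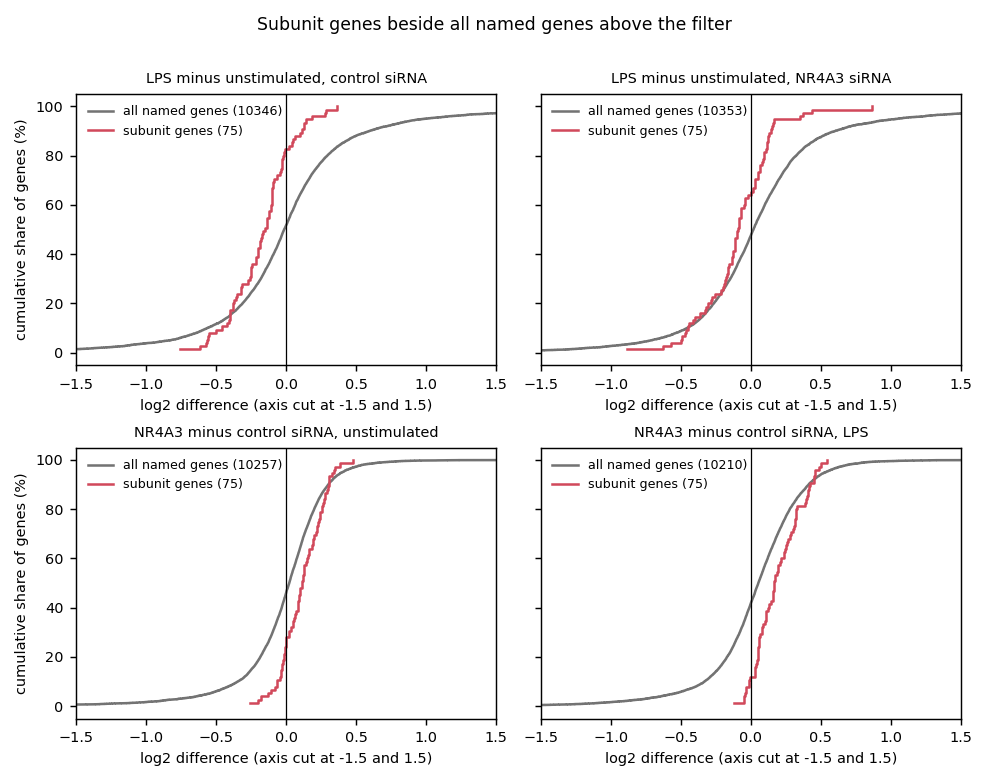
Cumulative share of genes (percent) against the log2 difference between 2 arrays, for subunit genes (red) and all named genes above the filter (grey), in the 4 comparisons. In the upper panels (LPS minus unstimulated) the red curve crosses 0 at 82.7% and 64.0%, above the grey one at 51.7% and 47.6%, and it is steeper in all 4 panels. In the lower panels (NR4A3 minus control siRNA) the red curve lies right of the grey one over most of its range.

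The step with LPS was less downward under NR4A3 siRNA than under control siRNA for 53 of the 75 subunit genes (70.7%, beside 59.1% of all genes), a difference that the design cannot test. The median difference between the steps was 0.09, against 0.05 for all genes. These steps also use the LPS array with control siRNA. Ndufa5, an accessory subunit of complex I, had the largest, 0.66: it went from 7.70 to 7.14 with control siRNA and from 7.44 to 7.54 with NR4A3 siRNA. The LPS array with control siRNA was the lowest of the 4. Ndufs4 followed at 0.50, and Ndufb2 and Atp5g3 had 0.42 each. At the other end Atp5g2 and Ndufb7 stood at -0.30 each, being lower with LPS by a wider margin under NR4A3 siRNA.

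Promoter sequence was read from RefSeq for the GRCm38.p6 build, from 250 bases before to 50 after the start site, and 66 of the 81 members had an entry. Motifs of factors known for respiratory genes were counted on both strands. NRF1 (GCGCANGCG) was present in 19 members (28.8%), beside 7.03% of all 27025 promoters and 15.5% of those of genes above the filter. The ETS site bound by GABP (CCGGAAG) was present in 17 (25.8%), beside 9.93% and 20.7%, and YY1 (AAGATGGCG) in 7 (10.6%), beside 1.64% and 3.74%. The ERR element (TCAAGGTCA) was found in Atp5g3 and Sdhd, or 3.03% beside 0.466% of all promoters. The element bound by NR4A receptors (AAAGGTCA) was found in 0 of 66, beside 1.70% of all promoters and 1.05% of those of genes above the filter. The ERR and NR4A letters are alike in part but differ at a base, so the same stretch cannot match both.

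The upstream 250 bases are shown for Uqcr11 and Cox7a1, which fell with LPS, and for Ndufs4, which rose, as examples of called members that had an entry in the promoter table. Each runs from 5′ to 3′ on the strand of the gene and ends at the base before the start site. Capitals mark motif letters.
Uqcr11, chr10:80406822-80407071, minus strand: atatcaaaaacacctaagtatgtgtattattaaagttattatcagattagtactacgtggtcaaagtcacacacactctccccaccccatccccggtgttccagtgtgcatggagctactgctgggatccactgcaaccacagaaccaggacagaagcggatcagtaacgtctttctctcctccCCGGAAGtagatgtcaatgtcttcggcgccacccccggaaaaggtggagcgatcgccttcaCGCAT
Cox7a1, chr7:30183921-30184170, plus strand: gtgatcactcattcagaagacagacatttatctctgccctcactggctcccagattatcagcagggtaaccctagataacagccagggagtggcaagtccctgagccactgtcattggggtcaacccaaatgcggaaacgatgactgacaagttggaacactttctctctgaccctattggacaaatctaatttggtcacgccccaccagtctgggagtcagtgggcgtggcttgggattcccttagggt
Ndufs4, chr13:114388095-114388344, minus strand: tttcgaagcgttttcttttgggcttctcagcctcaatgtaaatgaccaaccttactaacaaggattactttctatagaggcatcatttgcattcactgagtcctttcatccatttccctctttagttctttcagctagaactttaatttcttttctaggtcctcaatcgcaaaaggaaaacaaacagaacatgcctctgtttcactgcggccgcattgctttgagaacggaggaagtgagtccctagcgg
The ETS letters of Uqcr11 begin 66 bases before the start site. The last capitals are the first bases of an NRF1 match that begins 5 bases before it and runs past it. Cox7a1 held none of the 5 motifs. Ndufs4 held the YY1 letters 35 bases after its start site, outside the printed stretch.

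The array values of members with and without a motif were set side by side, with no test. The median average LPS effect was -0.16 for the 19 members with NRF1 letters and -0.13 for the 44 tested members with an entry and no such letters. It was -0.11 with ETS letters and -0.15 without, and -0.06 for the 7 members with YY1 letters beside -0.15 for 56 without. The median siRNA effect was 0.18 with NRF1 letters and 0.15 without, 0.10 and 0.16 for ETS, and 0.24 and 0.15 for YY1.

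Other genes of oxidative metabolism moved in both directions with LPS. Of the Ndufa4 family, Ndufa4 stood at 8.20 and 7.94 with control siRNA and at 8.36 and 8.18 with NR4A3 siRNA, and did not pass the threshold for LPS (average -0.22). Its relative AA467197, a mitochondrial protein known to take the place of Ndufa4 in complex IV of inflamed cells, stood at 11.14 and 12.90 and at 10.54 and 12.75. AA467197 rose by 1.99 with LPS (adjusted p = 0.000372, limma), while Ndufa4l2 stayed between 5.97 and 6.21. Cytochrome c, Cycs, which carries electrons from complex III to complex IV, rose by 0.44 (adjusted p = 0.0217, limma, and 0.0504 with repeated quantile normalization). Of the subunits encoded in mitochondrial DNA only 2 of 13 were measured by a probe set of their own: the complex I subunit ND3 fell by 0.51, and the complex IV subunit COX2 stayed between 13.28 and 13.33.

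Among the assembly factors, which build the complexes and are not part of them, called rises outnumbered called falls with LPS. Of all genes 15.6% were called higher with LPS and 14.4% lower. For complex IV 6 of 17 rose and none fell, among them the copper chaperones Cox17 (by 1.07) and Sco1 (by 0.83), Coa5 (by 0.91) and Slirp (by 0.85), which binds mitochondrial mRNA. For complex I 2 of 9 rose, Ndufaf3 by 0.62 and Foxred1 by 0.44. For complexes II and III Uqcc1 and Sdhaf1 rose while Bcs1l, the factor that inserts the Rieske protein, fell by 0.75, out of 9 tested. For complex V Tmem70 rose by 0.36, out of 4, and missed the threshold with repeated quantile normalization and cyclic loess (adjusted p of 0.0799 and 0.0557, limma). With NR4A3 siRNA Coa5 was called lower, by 0.73 on average (adjusted p = 0.0284, limma), and no other gene of these lists was called. The subunit genes had 12 lower and 2 higher calls in the same fit.

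In the TCA cycle 6 of 17 genes were called lower with LPS and none higher, beside 14.4% and 15.6% of all genes. The falls included Fh1, fumarase, by 0.81, Idh2 by 0.70, Idh3g by 0.55 and Idh3a by 0.47. With NR4A3 siRNA 16 of 17 TCA genes were higher on average (56.2% of all genes) and none was called (5.56%). The ribosome of the mitochondrion makes the subunits encoded in mitochondrial DNA. With LPS 9 of its 77 genes were called higher, a smaller share than the 15.6% of all genes, and 2 lower, at a median of 0.07. With NR4A3 siRNA 63 of the 77 were higher, beside 56.2% of all genes, at a median of 0.13 with 0 called. The cytosolic ribosome had 21 of 56 genes called lower and 1 higher with LPS at a median of -0.31 (35 lower with repeated quantile normalization). Its median siRNA effect was -0.04. All 37 proteasome genes tested were higher with LPS on average, 23 of them past the threshold, at a median of 0.43, and their median siRNA effect was 0.12. The subunit genes had medians of -0.13 and 0.15 in the same fit. Their LPS median lay between those of the cytosolic and the mitochondrial ribosome, and their siRNA median near that of the mitochondrial ribosome. The medians of the subunit genes, of each complex and of these groups kept their sign under all 3 other normalizations.

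**Figure D5:**
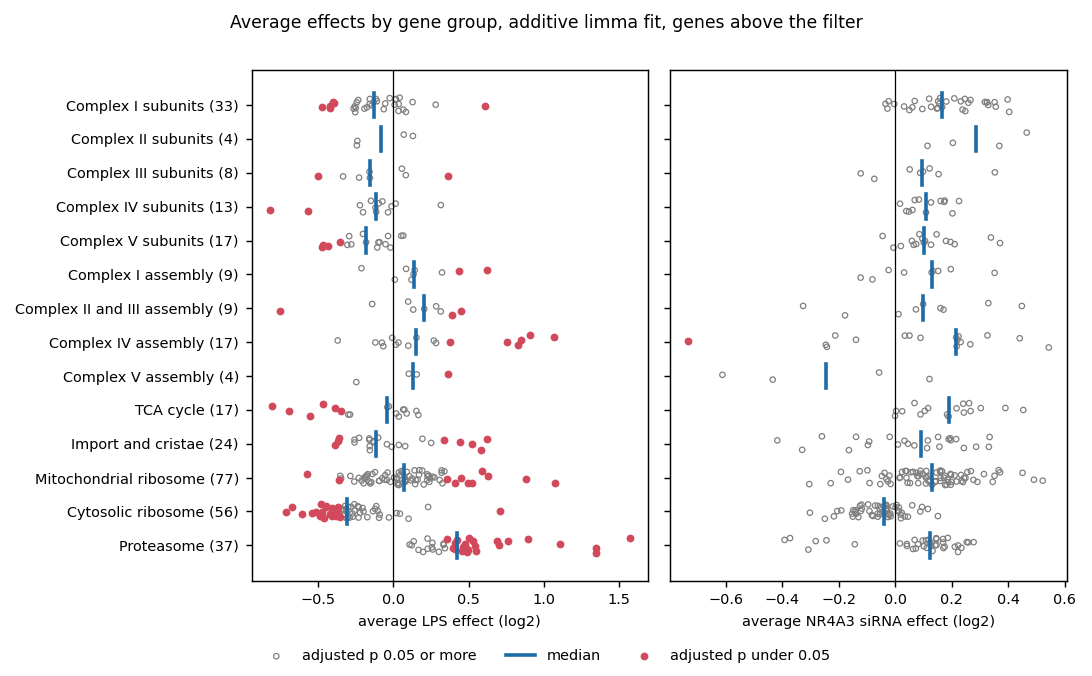
Average LPS effect (left) and average NR4A3 siRNA effect (right) in log2 units from the additive limma fit, for subunit genes by complex and for the other gene groups, with the number of genes tested in brackets. Each point is 1 gene, spread vertically for visibility, red where the adjusted p is under 0.05, and blue bars are medians. The subunit medians lie left of 0 for LPS and right of 0 for NR4A3 siRNA, where none of the 75 points is red.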

How the data were processed

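Total RNA was measured on 4 arrays, 1 per condition. Deposited log2 values come from RMA including a quantile step, according to the labels. The submitters' processing notes list Affymetrix Expression Console 1.1, and GeneSpring appears in the design text. The genome build is not given in the sources used here. Since the quantile step forces the same distribution on every array, a common shift of most genes would be hidden. Of 28856 probe sets, 21789 had 1 gene symbol in the platform annotation and 7067 had several or none and were left out. Each gene was taken at its brightest single-symbol probe set. For 16 members with several, all agreed in sign for 16, 13, 14 and 16 of 16 in the 4 comparisons (LPS under control and NR4A3 siRNA, siRNA without and with LPS), although such probe sets may share probes.

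Log2 differences between 2 arrays have no test. The additive model of siRNA and LPS was fitted with limma 3.58.1 in R 4.3.3 (lmFit and eBayes, 1 residual degree of freedom and a prior of 4.76), and its residual holds the difference of LPS effects together with array noise. In 1 simulated data set the code recovered the changes put in, but more of its calls were false than the threshold of 0.05 allows, so calls near it are uncertain. Members, gene lists and tests were chosen with earlier results of these data known. Every member could be named, with all 4 levels for those called and, where a complex had none, for the most changed, and of each list up to 4 genes. Alternatives were 3 normalizations, other thresholds and filters, the mean of probe sets, an intensity trend in eBayes and, chosen after seeing the data, leaving out tissue isoforms and counting directions. Precision is limited by the number of arrays.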

Additional observations from a re-analysis of the deposited data

How the results depend on the processing

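Among the 14 members called for LPS and the summary values of the 4 comparisons, no direction turned under the alternatives run, and 119 of 134 summary values stayed close to those reported. Under LPS with control siRNA the 2 subunit genes past 1.5-fold became 6 with repeated quantile normalization (19.7% of all genes), 20 at a looser threshold of 0.32 on the log2 scale (37.8%), 0 at 2-fold (8.82%), 1 with the 75th percentile filter at 8.67 (24.9%) and 1 without tissue isoforms. Under LPS with NR4A3 siRNA the 3 became 5 with repeated quantile normalization (17.3%), 17 at the looser threshold (36.2%) and 0 at 2-fold (8.03%). Repeated quantile normalization also moved that median from -0.09 to -0.21 and the members higher from 27 to 14, and the cause was not tested. With NR4A3 siRNA the 0 past 1.5-fold became 5 without and 16 with LPS at the looser threshold, beside 19.4% and 26.7% of all genes. The members' share lay under that of all genes in each of these counts. Cyclic loess moved the members lower with NR4A3 siRNA in LPS-treated cells from 9 to 17, with the cause not tested. The average siRNA effect called 1 subunit gene, Sdhb, with the mean of probe sets and with the intensity trend in limma's eBayes, and 0 otherwise. Of the 14 members called for LPS, 10 stayed past the threshold under every alternative fitted. The exceptions were Atp5g1, Ndufb5, Ndufs4 and Uqcrfs1, which lost the call without a filter on dim genes, the last 2 also with repeated quantile normalization.

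No paired analysis was possible because each condition has 1 array, which also leaves no array to omit. The spread between cultures is unknown here. The standard error of most average effects was about 0.10 on the log2 scale, close to the size of the members' medians. It rests largely on the prior drawn from all genes fitted and is not a spread of replicates.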

Other observations

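Of 7 enzymes and regulators known to restrain respiration, 2 were called higher with LPS and 1 lower, beside 15.6% and 14.4% of all genes. Nos2, inducible nitric oxide synthase, went from 5.95 to 11.87 with control siRNA and from 5.98 to 11.63 with NR4A3 siRNA, and its unstimulated arrays lay below the filter, so no fold is given. Acod1, which makes itaconate, an inhibitor of complex II, went from 10.64 to 13.72 and from 10.52 to 13.66. Acod1 rose by 3.11 with LPS (limma, adjusted p under 0.05), and neither gene was called for the siRNA. Of the pyruvate dehydrogenase kinases, Pdk2 fell by 0.64, while Pdk1 and Pdk3 had averages of -0.58 and -0.00 and were not called. The adjusted p of Pdk1 was 0.0533 and, with median centring, 0.047 (limma). Hif1a, which is not one of these kinases, had an average of 0.12 and was not called. Pdk4 stayed below the filter. In the antioxidant list Sod2, the mitochondrial superoxide dismutase, rose by 1.36. The peroxide-removing Prdx3 fell by 0.48 and the thioredoxin Txn2 by 0.37.

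Among 18 tested regulators of mitochondrial biogenesis, Ppargc1b, a coactivator of respiratory genes, stood at 7.69 and 7.09 with control siRNA and at 8.16 and 7.83 with NR4A3 siRNA. It fell by 0.46 with LPS and was 0.61 higher with NR4A3 siRNA, both past the threshold (limma, adjusted p of 0.0276 and 0.0414). Tfb2m, a mitochondrial transcription factor, fell by 0.56 with LPS. Tefm, the mitochondrial elongation factor, rose by 0.44 with LPS and was 0.51 higher with NR4A3 siRNA, both past the threshold. With cyclic loess the siRNA effects of Ppargc1b and Tefm missed it (adjusted p of 0.0683 and 0.0687, limma), and Tefm also with repeated quantile normalization (0.0633). In the import and cristae list 5 of 24 genes rose with LPS, among them Apool, Vdac3, Hspe1 and Timm23, and 3 fell, against 3 and 5 with repeated quantile normalization. Of all genes in the main fit 15.6% were called higher and 14.4% lower. Of other entries to the chain, Gpd2, the glycerol-3-phosphate dehydrogenase of mitochondria, rose by 0.63 and Etfb, an electron carrier of fatty acid oxidation, fell by 0.55. The average LPS effect was below 0 for all 10 cell cycle genes tested, at a median of -1.45, and 9 passed. Some of them passed the filter only through unstimulated arrays, so the filter favoured a fall and its size is approximate. With LPS, Plk1 stood at 6.58 and 6.22 and Kif11 at 5.93 and 5.84, under control and NR4A3 siRNA. The step with LPS under NR4A3 siRNA was downward for 9 and upward for 1. Between the siRNAs, the unstimulated array with NR4A3 siRNA was the lower one for all 10, at a median of -1.07. Each of these differences passed 1.5-fold, beside 6.31% of all genes. In LPS-treated cells 7 were above the filter, 5 lower and 2 higher, at a median of -0.08 and none past 1.5-fold. The average siRNA effect was below 0 for all 10, at a median of -0.59, and 0 were called. Its part in the subunit values was not tested.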
